A study of Mus musculus with 45 samples.

Results

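Embryoid bodies of 4 days grown from KD-labelled mouse embryonic stem cells (ESCs) were compared with embryoid bodies of the same age from wild-type (WT) ESCs, and pluripotency and germline genes were higher in the KD-labelled ones while primitive streak, BMP, Wnt and mesoderm genes were lower. The comparison rests on 6 of the 45 arrays of the series, chosen by their titles: 3 arrays of KD day 4 and 3 of WT day 4. All arrays carry total RNA of cells of strain 129 that the labels give as male. The KD cells are labelled as silenced for Strip2, a scaffold component of the striatin-interacting phosphatase and kinase complex (STRIPAK), and the WT cells as wild type. Embryoid bodies were formed by hanging drop. A further line, SCR, has 3 arrays at day 4, and the undifferentiated ESCs of KD and WT have 3 arrays each; these are given as side values. The silencing construct, the number of clones behind the KD line, what the SCR line carries and whether the 3 arrays of a group come from separate cultures are not given in the sources used here. Each p-value is therefore set against array-to-array variation within a group, and that variation may be only technical.

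ESCs held in the naive state express a circuit of transcription factors around Oct4 (Pou5f1), Sox2 and Nanog. When they aggregate into embryoid bodies, that circuit is taken down, a primed epiblast state is passed through, and Nodal, Wnt, BMP and FGF signals then induce primitive streak genes, from which mesoderm and definitive endoderm arise. Mesoderm cells lose epithelial adhesion, take up a mesenchymal one, and give rise to heart, vessel and blood progenitors.

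The targeted gene was examined first. Strip2 read 3.06, 2.91 and 3.14 on the log2 signal scale in KD arrays, against 2.54, 2.76 and 2.88 in WT arrays, and SCR arrays read 2.54, 2.56 and 2.62. The KD arrays lay above the WT arrays, and all of them lay below the median of all values on the 6 arrays, 5.07. The difference, KD minus WT, was 0.31 ± 0.19 (SE) with a limma adjusted p of 0.24. In ESCs Strip2 averaged 2.72 ± 0.06 in KD and 2.70 ± 0.27 in WT (SD, n = 3 each). The single probe set of this gene therefore gave no lower value in the line labelled as silenced, and every direction given here rests on that label.

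Array medians ran from 5.05 to 5.08 in KD and from 5.04 to 5.08 in WT. Arrays of the same group correlated at 0.992 to 0.9959 in KD and 0.9907 to 0.9935 in WT over all probe sets, while KD arrays correlated with WT arrays at 0.9432 to 0.951. Of the markers set for ESCs, all 4 (Pou5f1, Sox2, Nanog and Zfp42) were above the array median in both groups, with array means of 11.36 to 11.54 in KD and 7.21 to 7.80 in WT. Those of early mesoderm (Mixl1 and Mesp1) had array means of 4.82 to 5.28 in KD and 8.77 to 10.39 in WT. Fibroblast markers (Col1a1, Col1a2, Thy1 and Postn), which feeder cells would carry, had array means of 5.28 to 5.43 in KD and 5.08 to 5.69 in WT. Within that set Col1a1 was lower and Thy1 higher in KD. Blood markers (Hbb-bh1 and Gata1) lay below the array median in both groups.

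A gene was called at an adjusted p under 0.05, with Benjamini-Hochberg adjustment over the 34945 probe sets that name 1 gene. Of 18193 genes, each represented by its brightest probe set, 6960 were called (38.3%). In KD, 3419 were higher (18.8%) and 3541 lower (19.5%), and the median difference over all genes was −0.01. Calls of at least 2-fold numbered 1191 higher (6.55%) and 1130 lower (6.21%). Over probe sets, 12077 of 34945 were called (34.6%), 5737 higher in KD (16.4%) and 6340 lower (18.1%). SCR against WT at day 4, which shares the WT arrays, gave 304 calls (1.67%), 94 higher in SCR (0.517%) and 210 lower (1.15%), and KD against SCR, which shares the KD arrays, gave 7583 (41.7%), 4024 higher in KD (22.1%) and 3559 lower (19.6%). KD against WT in ESCs gave 3198 (17.6%), 1495 higher in KD (8.22%) and 1703 lower (9.36%). All KD arrays lay above all WT arrays at day 4 in 4077 genes (22.4%) and below them in 4353 (23.9%).

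**Figure D1:**
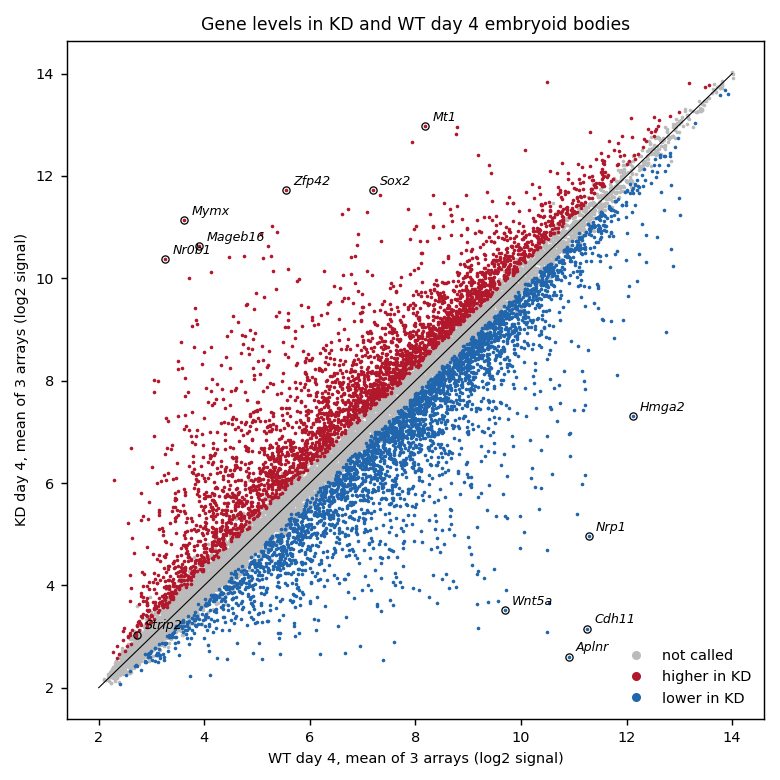
Mean log2 signal of 18193 genes in KD day 4 embryoid bodies (y axis, 3 arrays) against WT day 4 embryoid bodies (x axis, 3 arrays); red points were called higher in KD, blue points lower, grey points neither, and circled genes are named. Mymx, Nr0b1 and Zfp42 stand far above the line of equality, Aplnr, Cdh11 and Wnt5a far below it, and Strip2 lies near it at the low end.

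The 10 largest rises in KD were of genes whose ESC means were 9.98 or higher in both lines. Mymx, which encodes the fusion peptide myomixer of muscle cells, read 11.34, 10.94 and 11.13 in KD arrays, against 3.51, 4.29 and 3.06 in WT arrays. Nr0b1, which encodes the nuclear receptor Dax1 and is part of the naive network, read 10.40, 10.22 and 10.49 in KD arrays, against 3.43, 3.24 and 3.11 in WT arrays. Both genes were picked as largest rises among genes with all KD arrays above all WT arrays, so their lack of overlap was a condition of naming them. In ESCs both lines were high, at 10.72 in KD and 10.33 in WT for Mymx and at 11.00 in KD and 10.97 in WT for Nr0b1. The day 4 differences were 7.52 ± 0.30 (183-fold, adjusted p = 4.4e-21) for Mymx and 7.11 ± 0.22 (138-fold) for Nr0b1. They were followed by Mageb16 (6.74), Morc1 (6.28), Zfp42 (6.17), the lipase gene Liph (6.01), Dnmt3l (5.94), Trap1a (5.78), Dppa2 (5.75) and the ribosomal protein paralogue Rpl39l (5.69). Among genes above the median level in both groups, Patl2 (5.54) and Fbxo15 (5.43) joined Zfp42, Trap1a and Dppa2 as the 5 largest rises.

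Genes listed with mesoderm or mesenchyme were among the 10 largest falls in KD, and those groups were written with earlier results of these data known. Aplnr, the apelin receptor that marks mesoderm leaving the streak, read 2.55, 2.62 and 2.67 in KD arrays, against 10.81, 10.94 and 10.96 in WT arrays. Cdh11, a mesenchymal cadherin, read 3.10, 3.22 and 3.13 in KD arrays, against 11.32, 11.41 and 11.03 in WT arrays. In KD both genes stood at about the level they had in ESCs, which was 2.63 in KD and 2.62 in WT for Aplnr and 2.83 in KD and 2.99 in WT for Cdh11. The differences were −8.29 ± 0.21 (313-fold lower, adjusted p = 2.7e-26) for Aplnr and −8.10 ± 0.23 (275-fold lower, adjusted p = 4.9e-25) for Cdh11. Next came the pericyte gene Rgs5 (−7.41), Asb4 (−6.89), the semaphorin and VEGF co-receptor gene Nrp1 (−6.32), Wnt5a (−6.18), the BMP modulator gene Bmper (−6.00), Hand2 (−5.86), Foxf1 (−5.82) and the cyclin gene Ccnd2 (−5.80). Among genes above the median level in both groups the largest falls were those of Msx2 (−5.67), the chemokine scavenger receptor gene Ackr3 (−5.17), the myelin protein gene Pmp22 (−5.07), the VEGF receptor gene Kdr (−4.85) and Hmga2 (−4.81). In bulk RNA, fewer cells of a type and less RNA per cell cannot be told apart.

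Counts in this and the later gene groups are to be read beside the 18.8% of all genes called higher in KD and the 19.5% called lower. Core pluripotency genes were higher in KD for 7 of 10 members and lower for 1, with a median difference of 2.50 beside −0.01 over all genes. Pou5f1 (Oct4) read 11.57, 11.73 and 11.57 in KD arrays, against 8.31, 8.89 and 9.68 in WT arrays. Sox2, its partner on DNA, read 12.00, 11.43 and 11.74 in KD arrays, against 7.54, 7.67 and 6.37 in WT arrays. Every KD array lay above every WT array for both genes, and the WT arrays were spread more widely. The differences were 2.66 ± 0.37 (6.33-fold, adjusted p = 2.3e-07) for Pou5f1 and 4.53 ± 0.34 (23.1-fold, adjusted p = 2.2e-13) for Sox2. Nanog, one of the set ESC markers, was higher by 2.33 ± 0.45 (adjusted p = 6.2e-05). Fgf4, a joint target of Oct4 and Sox2, was higher by 4.86, the RNA-binding gene L1td1 by 4.74 and Utf1 by 2.99. The exceptions were Sall4 (−0.52, limma adjusted p = 0.048), Lin28a (−0.53, limma adjusted p = 0.24) and Trim71 (−0.08). Sall4 was the member called lower, and no member was when any array but the first WT one was left out. With only the 6 or the 9 day 4 arrays fitted, or with the replicate number as a block, 2 members were called lower. After cyclic loess scaling no member was.

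Of the naive pluripotency genes 12 of 14 were higher in KD and 1 was lower, with a median of 3.48, or 2.49 when all probe sets of a gene were averaged. Zfp42 (Rex1), the standard marker of naive cells, read 11.70, 11.61 and 11.84 in KD arrays, against 5.11, 6.12 and 5.41 in WT arrays. SCR arrays read 3.28, 4.66 and 4.27, and ESCs averaged 12.19 ± 0.07 in KD and 12.14 ± 0.09 in WT (SD, n = 3 each). The KD day 4 level was thus close to that of undifferentiated cells, while SCR and WT were far below it. The difference was 6.17 ± 0.46 (72.0-fold, adjusted p = 1.4e-13). The orphan receptor gene Esrrb was higher by 5.59 ± 0.25 (48.3-fold), Klf2 by 5.17, Tcl1 by 4.71, Tfcp2l1 by 3.70 and Prdm14, which restrains FGF signalling, by 2.50. Klf4 read 8.43, 8.16 and 8.26 in KD arrays, against 8.00, 7.89 and 7.67 in WT arrays, and was not called (0.43, adjusted p = 0.12). In ESCs Klf4 averaged 11.01 in KD and 10.90 in WT, so its day 4 level in KD was, unlike that of Zfp42, well below that of ESCs. Tbx3, which acts both in naive cells and in mesoderm and endoderm, was lower in KD (−1.29 ± 0.29). All 8 measured members of the group of ESC-associated transcripts were higher in KD (median 4.27), among them Dppa4 (4.63), the adhesion gene Jam2 (4.43) and the Nodal-related ligand gene Gdf3 (4.10); the KD and WT arrays of Upp1 overlapped.

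Primed epiblast genes were mixed: 5 of 11 were higher in KD, or 2 without the first WT array, and 1 was lower, with a median of 0.52. Fgf5, the classic marker of this state, read 8.03, 7.67 and 7.92 in KD arrays, against 6.77, 8.12 and 7.98 in WT arrays, and was not called (0.25, adjusted p = 0.73). In ESCs it averaged 3.42 in KD and 4.28 in WT. The KD embryoid bodies therefore carried Fgf5 well above the ESC level alongside naive genes. Pou3f1 (Oct6), which directs epiblast cells toward neural fate, was higher by 3.46 ± 0.38, Zic5 by 1.57 and Otx2 by 1.35 ± 0.44 (adjusted p = 0.015). Without the first WT array the call of Otx2 was lost (0.98, adjusted p = 0.13), and without the third KD array it was lost as well (1.27, adjusted p = 0.052); Zic5 lost its call without the first WT array (1.20, adjusted p = 0.052). Tead2, a partner of YAP, was lower (−1.13), and the DNA methyltransferase gene Dnmt3b did not pass (0.20, adjusted p = 0.62).

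**Figure D2:**
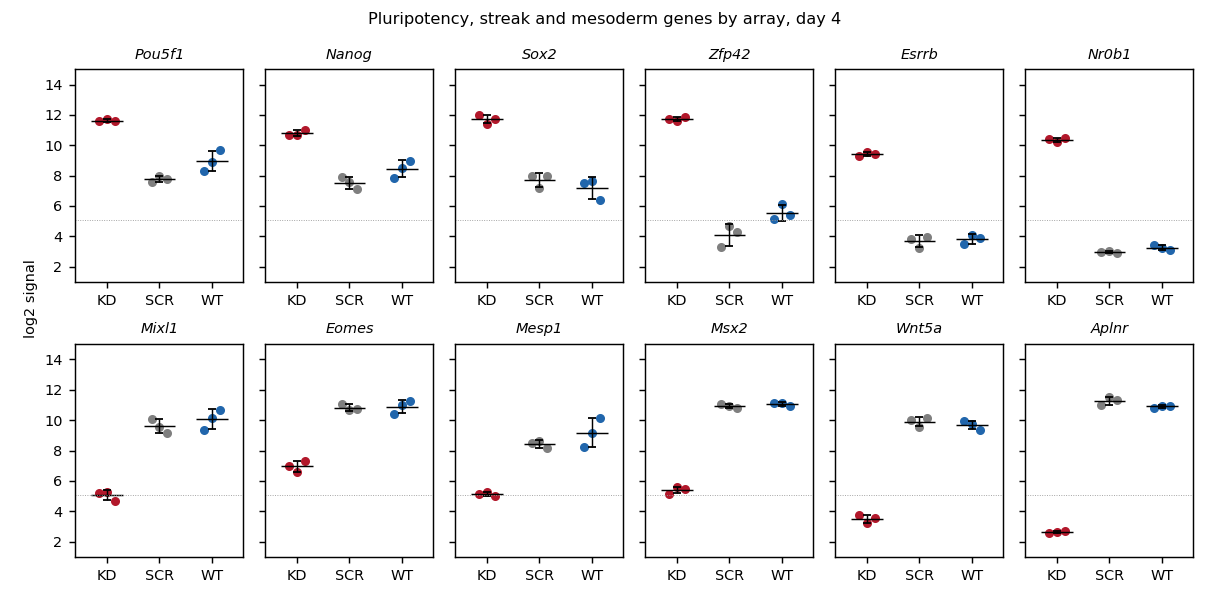
Log2 signal (y axis) of 12 genes in each of the 3 arrays of KD, SCR and WT day 4 embryoid bodies; points are arrays, bars the mean and SD of 3, and the dotted line the median of all values on the 6 KD and WT arrays. In the upper row the KD arrays lie above all SCR and WT arrays, and in the lower row below all of them.

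Primitive streak genes were lower in KD for 12 of 15 measured members and higher for 1, with a median of −2.69. Mixl1, a homeobox gene of the streak, read 5.19, 5.28 and 4.66 in KD arrays, against 9.34, 10.17 and 10.64 in WT arrays. Mesp1, which specifies cardiac mesoderm, read 5.16, 5.27 and 4.98 in KD arrays, against 8.20, 9.18 and 10.14 in WT arrays. The groups were far apart for both genes, and in ESCs Mixl1 averaged 4.83 in KD and 4.66 in WT. The differences were −5.01 ± 0.25 (32.1-fold lower, adjusted p = 3.6e-18) for Mixl1 and −4.04 ± 0.23 for Mesp1. Eomes, which drives both mesoderm and definitive endoderm, read 6.97, 6.59 and 7.30 in KD arrays, against 10.40, 11.03 and 11.27 in WT arrays. The KD level of Eomes was lower than WT (−3.95 ± 0.30) yet above the ESC means of 5.92 in KD and 6.01 in WT. Evx1 (−4.39), Lhx1 (−3.87), Fgf8 (−3.38), the Wnt target Sp5 (−3.27) and the ligand gene Wnt3 (−2.69) were also lower. The member called higher, Wnt8a, read 4.65, 5.15 and 4.92 in KD arrays, against 4.06, 4.22 and 4.77 in WT arrays, which overlap. Cdx1 (0.01) and Msgn1 (−0.21) were not called.

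Nodal, the ligand that starts streak formation, did not follow the streak genes. It read 10.13, 10.04 and 10.09 in KD arrays, against 7.68, 8.00 and 8.00 in WT arrays. Its feedback inhibitor gene Lefty2 read 8.98, 8.39 and 8.76 in KD arrays, against 3.59, 4.75 and 5.86 in WT arrays. All KD arrays of both genes were above all WT arrays, with differences of 2.19 ± 0.24 (adjusted p = 2.2e-09) for Nodal and 3.98 ± 0.35 (adjusted p = 1.4e-11) for Lefty2. Lefty1 was higher by 3.41 ± 0.20. In ESCs the Lefty genes had stood the other way, with Lefty1 at 7.71 in KD and 10.15 in WT and Lefty2 at 5.88 in KD and 8.06 in WT. Further along the pathway the type 2 receptor genes Acvr2a (−1.46) and Acvr2b (−0.82), the effector genes Smad3 (−1.65) and Smad4 (−0.60), their partner Foxh1 (−1.01) and the secreted inhibitor gene Cer1 (−2.52) were lower in KD. The co-receptor gene Tdgf1 (Cripto) read 11.49, 11.27 and 11.65 in KD arrays, against 9.77, 10.80 and 11.23 in WT arrays, and was not called (0.87, adjusted p = 0.21). Over the 14 measured members of this pathway 4 were higher and 7 lower (median −0.49).

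BMP pathway genes were lower in KD for 17 of 21 members and higher for none, with a median of −1.52, or −2.48 over the members above the median level of all probe sets. Among the ligands, Bmp4 read 7.92, 8.17 and 7.32 in KD arrays, against 10.13, 10.45 and 10.50 in WT arrays, a difference of −2.56 ± 0.26 (5.88-fold lower). In ESCs Bmp4 had averaged 10.76 in KD and 9.63 in WT, so its day 4 level lay below that of ESCs in KD and above it in WT. Bmp5 (−5.54), Bmp2 (−4.33) and Bmp7 (−1.52) were lower too. Of the receptors, Bmpr2 (−1.35) and Bmpr1a (−1.04) were called and Bmpr1b was not (−0.45). The effector genes Smad1 (−2.17) and Smad5 (−1.27), the feedback inhibitor genes Smad6 (−5.26) and Bambi (−3.11) and the target genes Id3 (−3.06), Id1 (−2.40), Msx1 (−4.42) and Msx2 (−5.67) followed. Msx2 read 5.16, 5.60 and 5.44 in KD arrays, against 11.10, 11.16 and 10.94 in WT arrays. Smad7 (−0.12) and the extracellular antagonist gene Grem1 (−0.09) were not called, and Chrd, called lower at −0.33, had overlapping arrays.

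Wnt pathway genes were lower in KD for 18 of 26 measured members and higher for 2 (median −1.11). Wnt5a, a ligand of the non-canonical branch that guides mesoderm migration, read 3.75, 3.24 and 3.54 in KD arrays, against 9.93, 9.76 and 9.38 in WT arrays. This was a difference of −6.18 ± 0.28 (72.5-fold lower, adjusted p = 3.2e-19), with SCR arrays at 10.02, 9.55 and 10.16. Wnt4 (−1.42) and the receptor gene Fzd1 (−2.79) were lower. Direct targets and feedback genes of β-catenin were lower as well: Lgr5 (−4.02), Nkd1 (−3.63), Dkk1 (−3.13), Lef1 (−2.49) and Axin2 (−1.44). The secreted antagonist gene Frzb was lower (−4.81 ± 0.30), whereas Sfrp2 (1.10) and the ligand gene Wnt7b (0.44) were higher. Wnt3a read 5.12, 5.24 and 4.97 in KD arrays and 4.97, 4.97 and 4.94 in WT arrays, and was not called (0.15, adjusted p = 0.47).

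FGF pathway genes moved both ways, with 7 of 14 members higher in KD and 6 lower (median 0.20). The calls higher were not limited to feedback and target genes, as a further ligand or receptor gene was among them. The ligand genes of differentiating tissue, Fgf10 (−3.73), Fgf3 (−3.65) and Fgf15 (−2.34), and the receptor genes Fgfr1 (−1.42), Fgfr2 (−0.98) and Fgfr3 (−1.01) were lower. Feedback and target genes of ERK signalling were among the members called higher. Etv5 read 11.19, 11.02 and 11.11 in KD arrays, against 8.32, 8.87 and 8.92 in WT arrays. Its difference was 2.40 ± 0.18 (limma adjusted p = 1.9e-13). Spry4 was higher by 2.34 ± 0.23 and the phosphatase gene Dusp6 by 1.72, and Spry1 was called higher too. These sit beside the ligand gene Fgf4 of the core pluripotency group, which was higher by 4.86 ± 0.20.

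**Figure D3:**
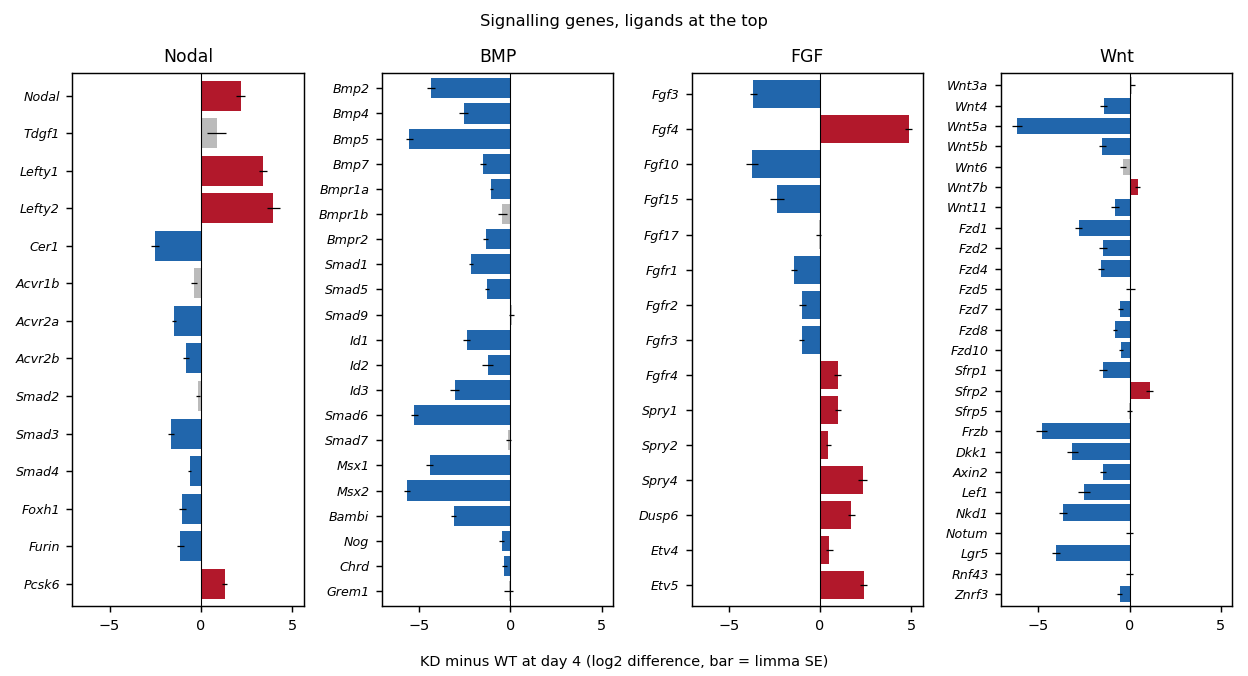
KD minus WT at day 4 (x axis, log2 difference with limma SE) for members of the Nodal, BMP, FGF and Wnt pathways; ligand genes stand at the top of each panel, red bars were called higher in KD, blue bars lower and grey bars neither, and Fgf4 is drawn with the FGF genes although it was counted with core pluripotency. No BMP gene was called higher in KD, while the other pathways hold calls both ways.

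Genes of mesoderm and heart progenitors were lower in KD for 11 of 16 members and higher for 2 (median −1.84). Hand2 read 3.72, 3.59 and 3.79 in KD arrays, against 9.75, 9.59 and 9.33 in WT arrays (−5.86 ± 0.19). Tbx20, a T-box factor of the heart, was lower (−5.70 ± 0.26), as were Foxf1 of lateral plate mesoderm (−5.82 ± 0.20), Isl1 (−3.14), Pdgfra (−3.12), Gata4 (−2.36) and Hand1 (−1.20). The members called higher were Tcf15 (2.65), which in ESCs marks cells about to leave the naive state, and the apelin receptor ligand gene Apela (1.98), both of which were also high in ESCs, at 9.94 in KD and 9.93 in WT for Tcf15 and at 10.48 in KD and 10.40 in WT for Apela. Aplnr and its ligand gene Apela thus moved in opposite directions. Nkx2-5 (−0.32) and Tbx5 (−0.17) were not called.

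Cardiac muscle genes were lower for 6 of 14 members and higher for 2. Myl7, an atrial myosin light chain gene, read 5.79, 5.75 and 5.61 in KD arrays, against 7.97, 8.67 and 9.03 in WT arrays (−2.84 ± 0.54, adjusted p = 4.8e-05). Tnnc1 (−2.61) and Tnni1 (−2.30) were lower as well. Myh6, which encodes the adult cardiac myosin heavy chain, went the other way: it read 6.33, 6.40 and 5.71 in KD arrays, against 3.13, 3.41 and 3.19 in WT arrays (2.90 ± 0.57, adjusted p = 7.5e-05). Its ESC means were 6.53 in KD and 5.88 in WT. Tnnt2 was called lower (−0.92, adjusted p = 0.044), and lost the call when any of 5 arrays was left out: the first KD array (−0.91, adjusted p = 0.092), the second (−0.92, adjusted p = 0.085), the third (−0.93, adjusted p = 0.086), the first WT array (−0.81, adjusted p = 0.14) or the second (−0.79, adjusted p = 0.15). With its probe sets averaged Tnnt2 was not called either (−0.61, adjusted p = 0.051). The median of the group was −0.18.

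Endothelial and blood genes were lower for 8 of 20 members and higher for 3 (median −0.26), beside 19.5% lower and 18.8% higher over all genes. Kdr, which marks vascular and cardiac mesoderm, read 5.44, 5.81 and 5.24 in KD arrays, against 10.01, 10.52 and 10.50 in WT arrays (−4.85 ± 0.20). The haematopoietic and vascular factor genes Runx1 (−3.20), Tal1 (−2.91), Etv2 (−2.82) and Lmo2 (−2.51) were lower. Pecam1 (2.45) and Tek (2.22), endothelial genes that naive ESCs can also express, were higher, and their ESC means were 6.48 in KD and 6.22 in WT for Pecam1 and 6.79 in KD and 6.55 in WT for Tek. The globin genes Hbb-bh1 (−0.21), Hba-x (−0.28) and Hbb-y (−0.29) were not called.

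Genes of the change in adhesion that goes with mesoderm formation differed as well. Mesenchymal and fibroblast genes were lower for 14 of 23 members and higher for 1, with a median of −1.26, or −0.82 when all probe sets of a gene were averaged. Cdh2 (N-cadherin) read 6.92, 6.12 and 6.54 in KD arrays, against 10.77, 11.09 and 10.94 in WT arrays (−4.41 ± 0.31). The transcription factor genes of epithelial-mesenchymal transition, Zeb2 (−4.15), Snai2 (−3.31), Twist1 (−3.04), Zeb1 (−1.26) and Snai1, were lower, and so were vimentin (Vim, −2.91) and fibronectin (Fn1, −1.64). Col1a1 was lower (−1.11), Col1a2 was not called (0.15), and Thy1, which ESCs also express, was higher (1.75).

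Epithelial genes were higher for 6 of 12 members and lower for 2 (median 0.46). In ESCs 5 of the 12 were called lower in KD and none higher, beside 9.36% and 8.22% over all genes. Grhl2, which maintains epithelial junctions, read 9.51, 9.22 and 9.81 in KD arrays, against 6.70, 6.95 and 6.82 in WT arrays (2.69 ± 0.19, adjusted p = 3.9e-14). The claudin gene Cldn4 was higher by 2.15 and Epcam by 0.78. E-cadherin (Cdh1) read 11.42, 10.97 and 11.35 in KD arrays, against 10.79, 10.78 and 10.40 in WT arrays; its difference of 0.59 (adjusted p = 0.018) was not called without the first KD array (0.50, adjusted p = 0.086), the third KD array (0.54, adjusted p = 0.067) or the third WT array (0.46, adjusted p = 0.11). The keratin genes Krt8 (−1.79 ± 0.31) and Krt18 (−1.51 ± 0.27) were lower. Krt8 read 11.10, 11.17 and 11.43 in KD arrays, against 13.26, 12.97 and 12.84 in WT arrays, and its ESC means were 9.43 in KD and 8.93 in WT, so KD lay between ESCs and WT day 4.

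Endoderm genes fell into opposite camps, 6 of 18 measured members higher in KD and 6 lower, with a median of 0.15. In ESCs 7 of the 18 were already called higher in KD and none lower, beside 8.22% and 9.36% over all genes. Sox17, a factor of definitive and extraembryonic endoderm, read 5.90, 6.04 and 6.95 in KD arrays, against 10.30, 10.32 and 10.02 in WT arrays (−3.92 ± 0.29). Cxcr4, a chemokine receptor gene of definitive endoderm and mesoderm, was lower (−5.16 ± 0.19), as were Foxa1 (−3.28), Foxa2 (−2.26) and Gata6 (−1.27). The endocytic receptor genes of visceral endoderm and other absorptive epithelia were higher: Lrp2 (megalin) read 8.26, 8.32 and 8.32 in KD arrays, against 5.03, 3.91 and 4.03 in WT arrays (3.98 ± 0.28), and Cubn (3.66), Dab2 (1.78) and Amn (1.61), whose products work with megalin, were higher with it. Transthyretin (Ttr, 2.03), which read 7.75, 7.51 and 9.36 in KD arrays, against 6.90, 6.04 and 5.58 in WT arrays, was higher, and in ESCs it averaged 3.48 in KD and 3.42 in WT. Hnf4a (0.13) and Afp (0.47) were not called. Of 10 basement membrane genes 4 were higher and 4 lower, but only 1 was higher without the first or the second KD array and 2 without the third KD array or the second WT array, with type IV collagen genes Col4a1 (−1.44) and Col4a2 (−1.21) lower and nidogen 2 (Nid2, 1.43) higher (median −0.15).

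**Figure D4:**
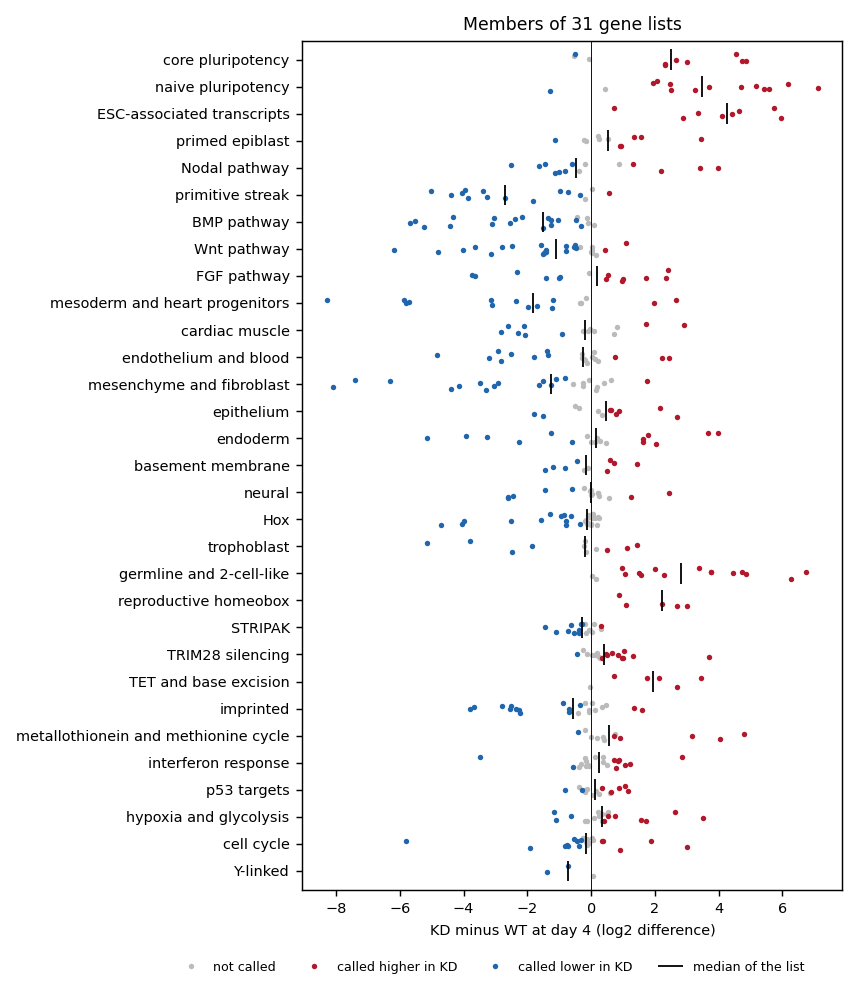
KD minus WT at day 4 (x axis, log2 difference) for the measured members of 31 gene groups (rows); each point is a gene, red called higher in KD, blue lower, grey neither, and the black tick is the median of the group. The medians of the pluripotency and germline rows lie to the right of 0 and those of the streak, BMP, Wnt and mesoderm rows to the left. Single members of several of these rows lie on the other side, and endoderm and FGF rows spread both ways.

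Neural genes showed no common direction, with 2 of 16 measured members higher and 5 lower (median −0.01). Sox1, the earliest neural plate marker, read 5.47, 5.75 and 5.65 in KD arrays, against 5.51, 5.55 and 5.86 in WT arrays, and was not called (−0.02, adjusted p = 0.95). Sox11 (−2.62), Ncam1 (−2.60) and Fabp7 (−2.44) were lower and the neuronal tubulin gene Tubb3 higher (2.45). The call of Pax6 (1.24, adjusted p = 0.045) was lost whichever of the 6 arrays was left out. Without the first, the second or the third KD array its difference was 1.21 (adjusted p = 0.097), 1.25 (adjusted p = 0.085) or 1.26 (adjusted p = 0.084), and without the first, the second or the third WT array it was 1.32 (adjusted p = 0.065), 1.03 (adjusted p = 0.16) or 1.36 (adjusted p = 0.057). Pax6 was not called after cyclic loess scaling (1.21, adjusted p = 0.051) or with its 5 probe sets averaged (0.24, adjusted p = 0.30).

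Of 30 measured Hox genes, which pattern the trunk from head to tail, 12 were lower in KD and none higher (median −0.12). The largest falls were of genes near the 3′ ends of the HoxB and HoxD clusters, where activation starts in the embryo: Hoxd1 read 2.83, 2.95 and 2.90 in KD arrays, against 7.77, 7.53 and 7.51 in WT arrays (−4.71 ± 0.17), and Hoxb2 (−4.05), Hoxb1 (−4.00) and Hoxb3 (−2.53) came next. Hoxb9 (0.05), Hoxc9 (0.02) and Hoxd10 (−0.05) were not called. Trophoblast genes were mixed, with 4 of 11 measured members lower and 3 higher (median −0.21). The falls held Plac1 (−5.14), Gata3 (−3.79) and Cdx2 (−2.49, a gene also expressed in the tail bud), and the rises held Tfap2c (1.44) and Ascl2 (1.12).

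Germline and 2-cell-like genes were higher in KD for 14 of 16 measured members and lower for none, with a median of 2.83, or 4.45 over the members above the median level of all probe sets. Germline genes of this kind are silenced by promoter methylation in somatic cells, and the E-box CACGTG in their promoters is a sequence that the repressor partners Mga and Max bind in ESCs. That motif, read on both strands (it is its own reverse complement), was present in 8 of the 15 members with a promoter in the RefSeq table (53.3%), against 2187 of 27025 genes (8.09%). A match is a description of the letters only, since no binding was measured. Promoters of 3 risen members, picked among those that hold the motif, are shown to place it. Each runs from 250 bases before to 50 bases after the gene start in RefSeq's assembly GRCm38.p6, with the E-box in capitals. They are Mael (chr1:166238695-166238994, minus strand), Ddx4 (chr13:112652261-112652560, minus strand) and Sycp3 (chr10:88459337-88459636, plus strand).
Mael: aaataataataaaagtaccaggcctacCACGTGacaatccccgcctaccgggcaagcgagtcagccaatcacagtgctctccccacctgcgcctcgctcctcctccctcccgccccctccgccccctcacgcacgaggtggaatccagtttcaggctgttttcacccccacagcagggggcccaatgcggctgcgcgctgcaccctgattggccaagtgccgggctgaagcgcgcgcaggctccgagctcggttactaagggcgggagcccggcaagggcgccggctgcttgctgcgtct
Ddx4: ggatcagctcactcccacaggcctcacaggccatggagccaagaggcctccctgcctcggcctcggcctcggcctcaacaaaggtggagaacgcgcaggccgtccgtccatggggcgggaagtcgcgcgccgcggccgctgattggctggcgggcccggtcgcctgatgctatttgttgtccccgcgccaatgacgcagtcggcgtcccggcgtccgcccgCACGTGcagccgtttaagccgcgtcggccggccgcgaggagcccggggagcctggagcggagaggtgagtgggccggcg
Sycp3: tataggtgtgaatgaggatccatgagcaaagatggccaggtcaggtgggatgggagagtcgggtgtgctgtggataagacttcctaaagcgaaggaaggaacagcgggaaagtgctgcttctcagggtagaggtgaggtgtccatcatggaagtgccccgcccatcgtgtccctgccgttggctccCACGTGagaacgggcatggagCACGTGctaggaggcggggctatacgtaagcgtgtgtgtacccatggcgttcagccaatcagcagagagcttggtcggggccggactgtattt
Mael, a piRNA pathway gene, read 7.85, 7.92 and 7.58 in KD arrays, against 2.85, 3.34 and 2.93 in WT arrays (4.74 ± 0.15, 26.8-fold, adjusted p = 1.3e-23). Ddx4 (Vasa), a germ-cell RNA helicase gene, read 8.14, 8.02 and 7.82 in KD arrays, against 2.54, 3.02 and 3.81 in WT arrays (4.87 ± 0.24, 29.2-fold). Sycp3, a part of the meiotic chromosome axis, read 10.88, 10.44 and 10.85 in KD arrays, against 6.82, 7.80 and 7.44 in WT arrays (3.37 ± 0.31, 10.3-fold).

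None of the KD arrays overlapped the WT arrays for these 3 genes. Their ESC means were already high in both lines, at 8.20 in KD and 8.44 in WT for Mael, 7.51 in KD and 7.79 in WT for Ddx4, and 9.15 in KD and 10.32 in WT for Sycp3. Mageb16, which was among the largest rises, has no E-box match in that window. Tex19.1 (4.45), Tdrd12 (3.76) and Dazl, which have no match there either, were higher too, as was Stk31 (3.76), which has 1. Asz1 (0.04, without a match) and Brdt (0.16, with an E-box in its window) were not called. All 5 measured reproductive homeobox genes, which lie mostly in an X-linked cluster, were higher (median 2.23): Rhox5 read 11.06, 11.29 and 10.70 in KD arrays, against 7.88, 7.91 and 8.25 in WT arrays, and Crxos (2.68), Rhox6 (2.23) and Rhox9 (1.08) followed.

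Genes for enzymes that oxidise 5-methylcytosine and act on the products were higher for 5 of 6 measured members (median 1.95). Tet1 read 11.03, 10.96 and 11.11 in KD arrays, against 8.10, 8.67 and 8.26 in WT arrays (2.69 ± 0.16), and Tet2 was higher by 2.13, while Tet3 was not called (−0.03). Gadd45a was higher by 3.44 ± 0.15. Genes of TRIM28-dependent silencing, the KRAB zinc finger route that represses retroviral elements, were higher for 10 of 18 measured members and lower for 1 (median 0.40). Of these 18, 5 were already called higher in KD ESCs, beside 8.22% over all genes. Trim28 itself read 12.11, 12.19 and 12.04 in KD arrays and 11.92, 11.89 and 12.00 in WT arrays and was not called (0.18, adjusted p = 0.28). The zinc finger genes Zfp819 (3.70) and Zfp809 (1.03) and the remodeller genes Smarcad1 (1.32) and Hells (1.01) were higher.

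Imprinted genes were mostly lower in KD, 12 of 22 measured members, with 2 higher (median −0.56). In ESCs 7 of the 22 were already called lower in KD and 2 higher, beside 9.36% and 8.22% over all genes. Igf2, a fetal growth factor gene, read 7.98, 8.38 and 7.98 in KD arrays, against 12.24, 11.80 and 11.38 in WT arrays (−3.69 ± 0.18, 12.9-fold lower). Peg3 (−3.80), Ndn (−2.80), Mest (−2.54) and Cdkn1c (−2.52) were lower, and Grb10 (1.58) and Plagl1 (1.33) higher. Igf2r, which clears Igf2, was not called (−0.41, adjusted p = 0.091). Several of these are expressed from opposite parental alleles, and the arrays do not tell the alleles apart.

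The metallothionein genes, which bind zinc and copper and answer to metal through the factor Mtf1, held some of the brightest rises. Mt1 read 12.93, 13.09 and 12.89 in KD arrays, against 7.79, 8.18 and 8.60 in WT arrays (4.78 ± 0.29, 27.5-fold, adjusted p = 6.6e-16). Mt2 read 12.74, 12.87 and 12.86 in KD arrays, against 8.48, 8.51 and 9.33 in WT arrays (4.05 ± 0.33). Both were high in ESCs, at 13.35 in KD and 12.50 in WT for Mt1 and at 13.16 in KD and 12.77 in WT for Mt2. Mt4 was higher by 3.17 and Mt3 was not called (0.40, adjusted p = 0.057). The promoter windows of Mt1 and Mt2 are given because both hold several copies of the core of the metal response element, TGCACNC or TGCGCNC on either strand, in capitals. Mt1 (chr8:94178839-94179138, plus strand, GRCm38.p6) holds 3 and Mt2 (chr8:94172368-94172667, plus strand) holds 4. Of 27025 genes 613 hold 3 or more (2.27%), and Mt3 and Mt4 hold 1 each.
Mt1: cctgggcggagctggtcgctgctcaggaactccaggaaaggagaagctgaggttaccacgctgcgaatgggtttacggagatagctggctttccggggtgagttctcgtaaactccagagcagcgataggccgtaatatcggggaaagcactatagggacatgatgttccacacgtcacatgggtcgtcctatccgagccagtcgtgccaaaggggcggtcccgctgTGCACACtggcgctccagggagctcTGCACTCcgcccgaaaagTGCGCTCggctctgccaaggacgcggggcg
Mt2: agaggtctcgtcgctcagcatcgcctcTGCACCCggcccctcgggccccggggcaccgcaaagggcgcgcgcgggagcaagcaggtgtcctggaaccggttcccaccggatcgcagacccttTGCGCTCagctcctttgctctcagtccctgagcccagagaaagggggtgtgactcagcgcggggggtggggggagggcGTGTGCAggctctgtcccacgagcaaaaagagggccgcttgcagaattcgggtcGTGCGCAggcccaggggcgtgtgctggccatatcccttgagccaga
Of the 12 measured members of the group with the methionine cycle, 5 were higher and 1 lower (median 0.55). In ESCs 6 of the 12 were already called higher in KD and 1 lower, beside 8.22% and 9.36% over all genes. The rises besides the metallothioneins were those of Mat2b (0.90) and Cbs (0.71).

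Interferon-response genes were higher for 7 of 20 measured members and lower for 2, or for 1 when any array was left out (median 0.25). In ESCs 7 of the 20 were called lower in KD and 1 higher (median −0.38), beside 9.36% and 8.22% over all genes. Bst2 (tetherin) read 9.67, 9.71 and 9.88 in KD arrays, against 6.73, 6.92 and 7.10 in WT arrays (2.84 ± 0.19), Ifitm3 was higher by 1.21 and Oas1a by 1.07. The fall of Usp18, which trims the modifier ISG15 from proteins, was larger, with 4.16, 3.84 and 4.20 in KD arrays, against 6.97, 7.58 and 8.15 in WT arrays (−3.50 ± 0.26). Gbp2 (0.50) and Gbp2b (0.37) were not called. Targets of p53 were higher for 5 of 16 measured members and lower for 2 (median 0.11), beside 18.8% higher and 19.5% lower over all genes. In ESCs 5 of the 16 were called lower in KD and 2 higher. Cdkn1a (p21) was not called (0.06, limma adjusted p = 0.83). Gtse1 (1.17), Eda2r (1.07) and Mdm2 (0.88) were higher and Sesn1 (−0.83) lower. The calls of 2 other p53 targets depended on the probe set. Aen was called higher by its brightest probe set (0.35) and lower by a further one (−0.79). Ccng1 was called lower by its brightest probe set (−0.29) and higher by a further one (0.76).

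Hypoxia and glycolysis genes were higher for 7 of 19 measured members and lower for 3 (median 0.35). Pdk1, which keeps pyruvate out of the mitochondrion, read 11.55, 11.12 and 11.41 in KD arrays, against 7.80, 8.23 and 7.54 in WT arrays (3.50 ± 0.19). Bnip3 (2.64), Pfkp (1.71) and Hk1 (1.55) were higher. The other hypoxia targets Vegfa (−1.18) and Ldha (−0.63) were lower, and the glucose transporter genes Slc2a1 (0.24) and Slc2a3 (0.21) were not called. Cell-cycle genes were higher for 5 of 22 measured members and lower for 9 (median −0.16), beside 18.8% higher and 19.5% lower over all genes. The D cyclins, which are low in naive ESCs, were lower: Ccnd2 read 4.55, 4.88 and 4.67 in KD arrays, against 10.13, 10.59 and 10.78 in WT arrays (−5.80 ± 0.30, 55.7-fold lower), and Ccnd1 (−1.91) and Ccnd3 (−0.76) followed, although a further probe set of Ccnd3 was called higher. The inhibitor genes Cdkn2a (3.01) and Cdkn2b (1.88) were higher. Mki67 was lower (−0.72) and Top2a was not called (−0.13).

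STRIPAK genes, to which Strip2 belongs, were lower for 9 of 17 measured members and higher for 1, Strn3 (0.31), with a median of −0.28. With the replicate number as a block 5 were lower and none higher by limma, and none was higher with only the 6 or the 9 arrays fitted, with arrays centred, or without the first KD array, the third KD array or the third WT array. The kinase gene Stk26 read 8.67, 8.66 and 8.75 in KD arrays, against 10.12, 10.05 and 10.23 in WT arrays (−1.44 ± 0.21). Stk24, its relative, was lower (−1.09 ± 0.09), as were Cttnbp2nl (−0.72), Sike1 (−0.63) and the scaffold gene Strn (−0.55). Fgfr1op2 was called lower by its brightest probe set (−0.31), but a further probe set was called higher (0.65). In ESCs Stk26 averaged 7.49 in KD and 8.56 in WT and Stk24 9.42 in KD and 10.28 in WT. For neither did the day 4 difference differ from the ESC difference in limma (adjusted p = 0.43 for Stk26 and 0.18 for Stk24). The Y-linked genes Uty (−1.38) and Eif2s3y (−0.74) were also lower at both stages, with ESC means of 6.03 in KD and 7.25 in WT for Uty and of 8.76 in KD and 9.84 in WT for Eif2s3y, and the third, Kdm5d, was near the bottom of the scale in both lines (0.07, not called).

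**Figure D5:**
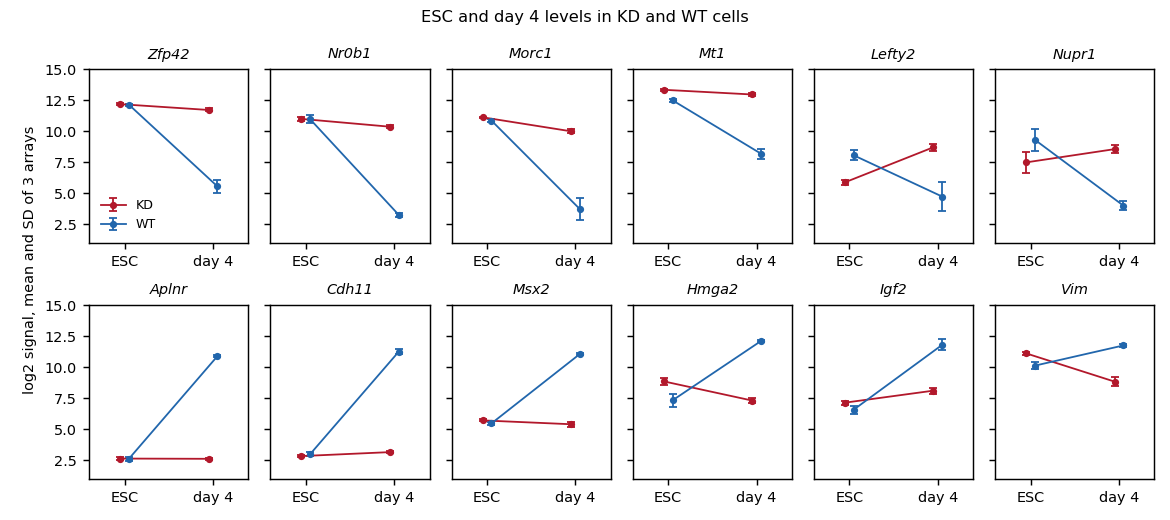
Log2 signal (y axis, mean and SD of 3 arrays) of 12 genes in ESCs and day 4 embryoid bodies of KD (red) and WT (blue). Zfp42, Nr0b1 and Morc1 keep about their ESC level in KD and fall in WT, Aplnr, Cdh11 and Msx2 keep it in KD and climb in WT, and the lines for Lefty2, Nupr1, Hmga2, Igf2 and Vim cross.

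Whether the day 4 difference exceeded the one the lines had before differentiation was tested as KD minus WT at day 4, less KD minus WT in ESCs. Of 18193 genes 5202 passed (28.6%), 2564 in the positive direction (14.1%) and 2638 in the negative (14.5%). Of the naive genes 12 of 14 passed in the positive direction, of the germline genes 12 of 16, of the streak genes 11 of 15 in the negative, and of the BMP genes 15 of 21. The highest contrasts were those of Mymx (7.13), Nr0b1 (7.08), the stress-response gene Nupr1 (6.38), the pyrimidine-degradation gene Dpys (6.33) and Mageb16 (6.23). Nupr1 read 8.32, 8.90 and 8.46 in KD arrays at day 4, against 4.00, 3.66 and 4.33 in WT arrays, and in ESCs it averaged 7.49 in KD and 9.31 in WT. The lowest contrasts were those of Aplnr (−8.30), Cdh11 (−7.94), Rgs5 (−7.57), Asb4 (−6.95) and Nrp1 (−6.75). Hmga2, an architectural factor of fetal growth, read 7.38, 7.50 and 7.05 in KD arrays at day 4, against 12.07, 12.09 and 12.21 in WT arrays, and its contrast of −6.34 was larger than its day 4 difference of −4.81, with ESC means of 8.86 in KD and 7.33 in WT. Vimentin was likewise higher in KD ESCs, at 11.12 in KD and 10.13 in WT, and lower in KD at day 4.

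The mean level of a gene group was also taken on each array. Naive pluripotency genes averaged 8.95 ± 0.09 in KD day 4, 4.96 ± 0.04 in SCR day 4 and 5.43 ± 0.10 in WT day 4 (SD, n = 3 each). In ESCs they had averaged 9.94 ± 0.01 in KD and 10.21 ± 0.35 in WT. BMP pathway genes averaged 6.35 ± 0.06 in KD day 4, 8.60 ± 0.04 in SCR day 4 and 8.56 ± 0.01 in WT day 4, and the ESC means were 6.63 in KD and 6.58 in WT. For streak genes the values were 4.63 ± 0.09 in KD day 4, 6.54 ± 0.13 in SCR day 4 and 6.90 ± 0.51 in WT day 4, where the WT arrays had the widest spread, and 4.32 in KD ESCs and 4.33 in WT ESCs. The KD and WT day 4 arrays did not overlap in any of these 3 group means. The same held for neural genes, which showed no common direction, at 5.13 to 5.26 in KD and 5.41 to 5.6 in WT. Endoderm genes did overlap, at 6.98 to 7.3 in KD and 7.06 to 7.26 in WT. Lack of overlap in a group mean therefore does not set the naive, BMP and streak groups apart from other groups.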

How the data were processed

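The deposited values are log2 signals of Affymetrix mouse expression arrays, given by the authors to 2 decimals. Affymetrix Expression Console, Partek 6.6 and RMA are named, per the submitters' processing notes, with no role or order, so how background was handled is not given in the sources used here, and log2 differences against low values depend on it. Raw scans and detection calls were not used here. Total RNA was amplified and labelled with biotin, per the labels' protocols.

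Of 45037 probe sets, 34945 name 1 gene in the platform annotation supplied, 932 several and 9160 none; only the first kind was tested. In limma 3.58.1 under R 4.3.3, group means of all 15 groups were estimated from the 45 arrays together, leaving 30 residual degrees of freedom, and p-values were adjusted over all tested probe sets. A gene was represented by its probe set of highest average signal on the 45 arrays. Standard errors are limma's. Data were also simulated for the same 34945 probe sets, with 50 changed at each of 4 sizes and independent normal noise. There the test recovered 50% of 1.5-fold, 90% of 2-fold, 98% of 4-fold and 100% of 8-fold changes, and 4.52% of its calls were false. The real comparison called 12077 probe sets, far more than were changed in the simulation, so these rates do not carry over to it. With 3 arrays a group, the number of arrays limits the precision.

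The comparison, the 31 gene groups and the rule for named genes were chosen with earlier results of these data known. The rule took Strip2, the 10 largest rises and falls without overlap between arrays, the 5 largest of each among genes above the median level in both groups, the 5 highest and lowest contrasts against ESCs, and of each group the first 2 members and up to 4 with the largest calls, 171 genes in all; further members were named after their values were seen. Of 515 genes in the groups, 478 were analysed here. Of the 171 genes the rule named, 92 have several probe sets, none with an opposite call by a further probe set. Among all called genes with several probe sets, 4052 in number, 98 have a further probe set called the other way. Promoter windows were taken from RefSeq (GRCm38.p6). Alternatives covered the arrays fitted, scaling, a filter on dim probe sets, the choice of probe set, the prior, the replicate number and each array left out.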

Additional observations from a re-analysis of the deposited data

Results flagged for a closer look

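The day 4 difference between KD and WT differed from the ESC difference between the same lines in 5202 genes, and the 5 highest and 5 lowest values of that contrast are listed here because the test of the difference itself passed for each. The highest were Mymx (7.13), Nr0b1 (7.08), Nupr1 (6.38), Dpys (6.33) and Mageb16 (6.23). In Dpys the KD arrays read 8.68, 8.84 and 9.69 at day 4, against 3.70, 4.00 and 3.57 in WT arrays, while its ESC means were 8.13 in KD and 9.15 in WT. The lowest were Aplnr (−8.30), Cdh11 (−7.94), Rgs5 (−7.57), Asb4 (−6.95) and Nrp1 (−6.75). Asb4 read 3.25, 3.85 and 3.84 in KD arrays at day 4, against 10.36, 10.81 and 10.43 in WT arrays, and its ESC means were 3.82 in KD and 3.76 in WT. No group holds enough arrays for a check of single outlying arrays, since each has 3.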

How the results depend on the processing

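Counts of called genes stayed within 1.5 times under every alternative run, from 5436 to 7036 around 6960, and counts of probe sets ran from 9486 to 13792 around 12077. Leaving out 1 array gave 6246 to 6421 genes, 10661 to 11044 probe sets and 4702 to 4991 genes for the contrast against ESCs (5202 with all arrays). Genes named by the rule were refitted under 14 alternatives, of which the filter on dim probe sets held 158 of the 170 beside Strip2. None reversed where it was refitted, 160 kept their side of the threshold, 8 lost a call under some alternative (Lamb1, Setdb1, Lama1, Pax6, Tnnt2, Cdh1, Otx2 and Zic5) and Tdgf1 and Igf2r gained one. Of the named genes 148 to 152 were called with 1 array left out, and 153 with all. Strip2 ranged from 0.22 to 0.39 with 1 array left out and was too dim to enter the filtered fit.

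Medians of gene groups moved more. Over members above the median level of all probe sets, which leaves out dim members by construction, they were 3.70 for naive pluripotency, −3.95 for primitive streak, −2.48 for BMP, −1.42 for Wnt, 0.46 for FGF, −1.97 for mesoderm, −0.59 for cardiac muscle, −0.31 for neural, −0.36 for Hox, −2.49 for trophoblast, 4.45 for germline, 2.13 for TET, −0.71 for imprinted, 0.90 for metallothionein and methionine, 0.50 for interferon and −1.06 for Y-linked genes. With all probe sets of a gene averaged they were 2.31 for core pluripotency, 2.49 for naive pluripotency, 3.23 for ESC-associated, −1.59 for BMP, −0.82 for Wnt, 0.08 for FGF, −1.58 for mesoderm, −0.35 for cardiac muscle, −0.82 for mesenchyme, −0.34 for basement membrane, −0.02 for trophoblast, 1.46 for reproductive homeobox, −0.39 for STRIPAK and −0.36 for imprinted genes; the cause was not tested. With 1 array left out, medians ran from 2.32 to 2.78 for core pluripotency, 3.22 to 3.73 for naive pluripotency, 0.20 to 0.76 for primed epiblast, −1.22 to −1.02 for Wnt, −2.21 to −1.51 for mesoderm, −0.26 to −0.11 for cardiac muscle, 0.08 to 0.20 for endoderm, −0.09 to 0.03 for neural, −0.21 to −0.03 for Hox, 0.13 to 0.26 for FGF, 0.06 to 0.14 for p53, −1.45 to −1.05 for mesenchyme, −0.29 to −0.01 for basement membrane, 2.69 to 2.99 for germline, 0.35 to 0.41 for TRIM28, 1.90 to 2.00 for TET and 0.11 to 0.33 for interferon genes.

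Deviations of KD and WT arrays from their group means correlated at −0.017, −0.371 and −0.174 for arrays with the same replicate number. For arrays with different numbers the correlations ran from −0.245 to 0.325. With 3 arrays a group, this cannot decide whether the numbers pair the samples. With the replicate number as a block, 5436 genes, 9486 probe sets and 4392 genes for the contrast against ESCs were called. Counts within gene groups that moved by more than 1.5 times elsewhere include cardiac muscle, with 4 higher in place of 2 when only the 6 arrays were fitted, and hypoxia, with 11 in place of 7.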

Other observations

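Gene families outside the groups above were sorted by symbol after the values had been seen, so their counts are descriptions, to be read beside the 18.8% of all genes called higher in KD and the 19.5% called lower. Of 42 collagen genes 18 were lower in KD and 3 higher, led by Col4a5, with a mean of 3.61 in KD and 7.58 in WT (−3.97). Among 33 semaphorin, plexin and neuropilin genes, which steer migrating cells and vessels, 15 were lower, with Nrp1 followed by Sema6d and Sema5a (−2.95), and 5 higher, with Sema4b (2.09) ahead. Ephrins and Eph receptors, which sort cells at tissue borders, had 11 of 21 lower, with Efna1 (−2.92) and Efna5 (−2.43) ahead, and only Epha2 higher (1.11). Protocadherin genes had 13 of 35 lower and none higher, by limma at the threshold used throughout, with Pcdh7 (−4.83) and Pcdh18 (−4.77) ahead. Of 37 forkhead factor genes 17 were lower and 6 higher, and Foxp1 (1.76) and Foxo1 (1.13) were among the rises.

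Of 347 solute carrier genes 90 were higher (25.9%) and 50 lower (14.4%), and the largest rise was that of the cationic amino acid transporter gene Slc7a3, with a mean of 10.87 in KD and 6.91 in WT (3.96). Of 16 Kruppel-like factor genes 7 were higher and 2 lower, and Klf9 (2.83) came after Klf2. All 4 called Gata factor genes of 6 were lower. Housekeeping families moved little: of 46 cytosolic ribosomal protein genes 5 were higher and 4 lower, and the exception in size was Rpl39l, while of 40 proteasome genes 6 were higher and 5 lower, with the testis subunit gene Psma8 higher by 4.90. Zinc finger genes named Zfp had 70 of 336 higher (20.8%), close to the share over all genes, with Zfp936 (5.25) after Zfp42, and 94 lower (28%), with Zfp711 (−4.68) ahead.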
